A study of Mus musculus with 45 samples.

Results

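The lysyl oxidase family of the mouse, Lox and its paralogues Loxl1, Loxl2, Loxl3 and Loxl4, was followed across 15 PyMT+ mammary tumour cell lines. The family was taken whole, as 5 of the 54838 genes in the deposited table, and it was chosen by the measured level of Lox, which read lower in lines from the lung than in lines from the mammary fat pad. The levels of the members in lung against fat-pad lines are therefore given as a description, with no test, and the tests below concern other comparisons of the same lines.

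Lysyl oxidases are secreted, copper-dependent amine oxidases that turn lysine side chains of collagen and elastin into reactive aldehydes, from which the covalent crosslinks between matrix fibres form. Lox and Loxl1 are made with a propeptide that the metalloproteinase BMP1 removes outside the cell, whereas Loxl2, Loxl3 and Loxl4 carry scavenger receptor domains ahead of the catalytic domain. In mammary tumours the family is best known for crosslinking of the stroma and, in the case of Lox, as a gene induced by hypoxia that has been studied in metastasis to lung and bone.

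The part of the coding sequence that all members share is the catalytic domain, and its histidine-rich copper-binding stretch is shown here because reads from so similar a stretch could in principle be assigned to the wrong paralogue. Each line holds 60 coding bases of the canonical GENCODE transcript, 5′ to 3′, with the 33 bases that encode the copper-binding stretch in capitals.
Loxl1: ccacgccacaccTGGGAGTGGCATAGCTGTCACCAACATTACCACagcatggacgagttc
Loxl2: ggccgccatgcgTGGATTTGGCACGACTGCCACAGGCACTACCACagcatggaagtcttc
Loxl3: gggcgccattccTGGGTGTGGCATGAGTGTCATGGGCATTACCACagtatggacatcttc
Loxl4: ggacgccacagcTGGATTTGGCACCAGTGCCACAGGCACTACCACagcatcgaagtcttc
Over this stretch Loxl2 and Loxl4 shared 52 of 60 bases (86.7%), and Lox, whose sequence is not printed, shared 54 of 60 (90.0%) with Loxl1. The least alike were Lox and Loxl4, with 38 of 60 (63.3%). Along the whole canonical transcripts the longest run of identical bases between any pair of members was 32 bases (Lox and Loxl1), shorter than the 75 sequencing cycles used, so no read length of exact transcript sequence was common to a pair of members.

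In the GRCm39 annotation, Lox lies on chromosome 18 from 52649136 to 52663110 on the reverse strand and Loxl1 on chromosome 9 from 58195014 to 58220495 on the reverse strand, each with 7 exons in its canonical transcript. Loxl2 lies on chromosome 14 from 69846209 to 69933283 on the forward strand with 14 exons, Loxl3 on chromosome 6 from 83011152 to 83029543 on the forward strand with 14 exons, and Loxl4 on chromosome 19 from 42580711 to 42601252 on the reverse strand with 15 exons. Loxl3 overlaps exons of Htra2, which lies on the opposite strand, over 1182 bases, and Loxl2 overlaps exons of R3hcc1 in the same way over 943 bases. The library kit does not mark strand, so reads from these overlaps could not be told apart by strand. Other genes cover 25.3% of the exon bases of Loxl3 and 22.7% of those of Loxl2, but 0.6% of those of Lox, 4.0% of Loxl1 and 1.3% of Loxl4.

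The lines were cultured cells that carry the polyomavirus middle T oncogene, and all of them trace to YEJG or YEJH, a pair of parental lines labelled as primary mammary tumour. There were 6 fat-pad lines, grown out of mammary tumours that formed after PyMT+ cells were transplanted into the fat pad (YEJG-FP and YEJH-FP1 to YEJH-FP5). The 7 lung lines were recovered from small lung deposits of mice whose mammary tumour had first been removed by surgery (YEJG-M1, YEJG-M2 and YEJH-M1 to YEJH-M5), and of these the labels call YEJH-M3 lung metastases and the others whole lung. The 2 parental lines had no passage through a mouse, and the age and strain of the host animals are not given in the sources used here. Every line was sequenced as 3 technical repeats, so the line is the replicate between groups and the repeats measure only the spread within a line. Lines of 1 origin all descend from 1 parental line, so origin and founder line are the same factor here. The p-values between origins thus measure the spread among descendants of 1 founder per origin, and not the spread between founders.

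The 45 libraries held between 9723860 and 16943900 reads on genes, and 1 read was worth 0.0717 CPM (counts scaled to a common library size) at the median depth. Library names carried 2 prefixes, here A (22 libraries) and B (23 libraries), and the class of reads set aside for low alignment quality was empty in all 23 B libraries and in 0 of the A libraries. Between B and A libraries of the same lines edgeR called 0 of the 4 members tested, with 0 also at an unadjusted p under 0.05, where 15.9% of all genes tested were called (5.41% higher and 10.5% lower in B). The library of YEJG-M1 repeat 1 is named after YEJH-M1 but titled YEJG-M1. Its Loxl3 level was 39.6 CPM, against 37.8 and 36.7 CPM in the other repeats of YEJG-M1 and 7.91 to 10.9 CPM in those of YEJH-M1, and it was kept under its title. Markers of mammary luminal epithelium summed to between 2796 and 7407 CPM in every line, with 7 of 8 at a mean of 1 CPM or more (Elf5, a luminal progenitor factor, was the exception, with 11 reads in all). Lung epithelium markers summed to at most 0.433 CPM, with surfactant genes Sftpc, Sftpb and Sftpa1 at 0 reads, and endothelial and adipocyte markers to at most 0.857 and 0.113 CPM. Leukocyte markers summed to 2.95 to 6.69 CPM in lung lines and 1.98 to 3.52 CPM in fat-pad lines. Of these 7 markers Csf1r and Cd68 were at a mean of 1 CPM or more, while Itgam and Cd3e were at 0 reads. Csf1r lay between 0.367 and 4.85 CPM (highest in YEJH-M1) and Cd68 between 1.01 and 2.67 CPM (highest in YEJH-M2). Basal markers, of which Krt14 alone was at a mean of 1 CPM or more, summed to 138 to 408 CPM in lung lines (median 243), 368 to 497 CPM in fat-pad lines (median 429) and 746 and 1369 CPM in the parental lines. The part of these markers in the lung and fat-pad levels given below was not tested.

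The family as a whole was expressed at a low to middling level, and its leading member differed between lines. Levels were compared between genes as CPM per kilobase of exon, averaged over the 15 lines. Loxl3 had the highest mean of the members at 1.84 CPM per kb, which placed it at percentile 50.8 of the 16796 protein-coding genes with a read. Loxl4 followed at 1.15 (percentile 45.9), then Lox at 0.452 (percentile 39.0), Loxl1 at 0.164 (percentile 33.9) and Loxl2 at 0.0154 (percentile 22.6).

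Loxl3 was the leading member in 12 of the 15 lines. Lox led in the parental line YEJG, where it made up 49.3% of the summed family level of 0.638 CPM per kb, and in YEJG-FP, where it made up 61.5% of 1.92 CPM per kb. Loxl4 led in YEJH-M5 alone of the 15, with 92.4% of a family level of 14.7 CPM per kb, the highest of all lines. The second highest family level, 9.23 CPM per kb in YEJG-M1, was 88.2% Loxl3. Both of these lines came from the lung, but the other 5 lung lines lay between 0.964 and 3.53 CPM per kb, a range that held 5 of the 6 fat-pad lines.

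**Figure D1:**
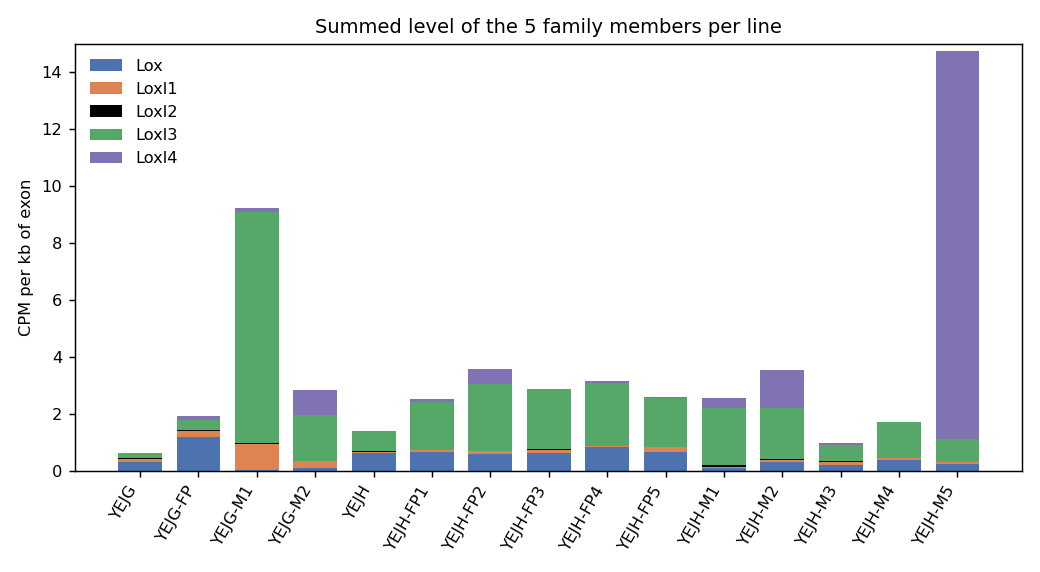
Summed level of the 5 family members in each line, in CPM per kb of exon (vertical axis, linear from 0), with the 15 lines along the horizontal axis and 1 colour per member; each value is a mean over 3 technical repeats. YEJH-M5 (14.7, mostly Loxl4) and YEJG-M1 (9.23, mostly Loxl3) stand above the other 13 lines, and Loxl2 is hardly visible.

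Lox, the founding member of the family and the enzyme whose level led to this choice of genes, was the member that kept lung and fat-pad lines apart. In the fat-pad lines its lowest level was 2.98 CPM (YEJH-FP2), its median 3.21 and its highest 5.80 (YEJG-FP). In the 7 lung lines the lowest was 0.138 CPM (YEJG-M1, 6 reads over 3 libraries), the median 0.987 and the highest 1.78 (YEJH-M4). All 7 lung lines lay below the lowest fat-pad line, which is how the gene was chosen and is not evidence of its own. The mean was 0.935 ± 0.607 CPM (SD, n = 7 lines) in lung lines and 3.72 ± 1.09 CPM (SD, n = 6) in fat-pad lines, a ratio of 3.98, and the fitted log2 difference was -1.9997. In the same fit over all genes edgeR called 0% of the 15056 genes tested between lung and fat-pad lines, with 784 at an unadjusted p under 0.05. In these bulk cultures, fewer cells that express a gene and less RNA per cell cannot be told apart.

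The difference in Lox was present in lines of both origins and differed in size. Among YEJH-derived lines the means were 1.17 ± 0.531 CPM (SD, n = 5) in the lung lines and 3.31 ± 0.421 CPM (SD, n = 5) in the fat-pad lines, a ratio of 2.81. Among YEJG-derived lines YEJG-FP stood at 5.80 CPM and the lung lines YEJG-M1 and YEJG-M2 at 0.138 and 0.535 CPM, a ratio of 17.3 that rests on 1 fat-pad line. Whether the ratios differ between origins was not tested. Within prefix A libraries the lung and fat-pad means were 0.963 and 3.65 CPM, and within prefix B libraries 0.867 and 3.82 CPM.

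**Figure D2:**
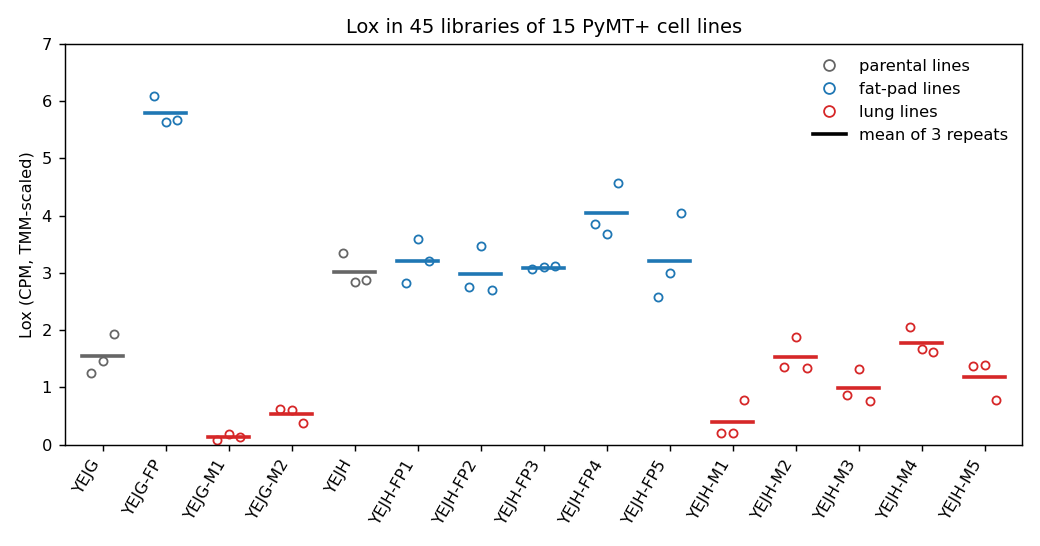
Lox in each of the 45 libraries, in TMM-scaled CPM on a linear axis from 0; open circles are libraries, horizontal bars the mean of 3 technical repeats, and colours the site each line came from. All repeats of the 6 fat-pad lines lie above all repeats of the 7 lung lines, which is how the gene was chosen and is not evidence of its own. The parental lines YEJG and YEJH lie at 1.55 and 3.02.

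Ordered by mean level, the Lox repeats of neighbouring lines overlapped at all but 5 of the 14 boundaries, and only next neighbours were compared. YEJG-FP stood alone at the top, with repeats of 6.10, 5.64 and 5.67 CPM. YEJH-FP4 came next, with repeats of 3.86, 3.69 and 4.57 CPM, and these overlapped with the highest repeat of YEJH-FP5 (4.05 CPM) further down the order. Below it the other 4 YEJH fat-pad lines and the parental line YEJH formed a block between 2.98 and 3.21 CPM whose neighbours overlapped. The next block, from 1.78 down to 0.987 CPM, held YEJH-M4, the parental line YEJG, YEJH-M2, YEJH-M5 and YEJH-M3. YEJG-M2 and YEJH-M1 followed at 0.535 and 0.399 CPM with overlapping repeats, the highest of YEJH-M1 (0.784 CPM) reaching into those of YEJH-M3 and YEJH-M5, and YEJG-M1 was the lowest. Thus the parental lines were not alike in Lox, and YEJG, at 1.55 CPM (repeats of 1.26, 1.46 and 1.93), read among lung lines of the other origin.

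Lines of 1 site and 1 origin could be tested against each other without using the comparison that chose Lox. Among the 5 YEJH lung lines Lox differed (edgeR quasi-likelihood test with Benjamini-Hochberg adjustment, adjusted p = 0.0185), with a fitted log2 range of 2.07 between the highest and the lowest line. YEJH-M1 was the lowest, with repeats of 0.210, 0.202 and 0.784 CPM from 16 reads, and YEJH-M4 the highest, with repeats of 2.06, 1.66 and 1.62 CPM. The call was lost without YEJH-M1 (adjusted p = 0.199, edgeR), without YEJH-M4 (adjusted p = 0.0821) and without repeat 1 or repeat 2 of every line (adjusted p = 0.199 and 0.185). Lox did not pass the test among the 5 YEJH fat-pad lines (adjusted p = 0.907, edgeR, log2 range 0.47).

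Loxl1, which is best known for crosslinking elastin onto fibres, was low in all lines and highest in the 3 YEJG-derived lines. YEJG-M1 had 3.67 CPM (repeats of 4.46, 3.26 and 3.28), YEJG-M2 had 0.903 (1.23, 1.02 and 0.452) and YEJG-FP had 0.839 (0.502, 1.07 and 0.946). In the 10 YEJH-derived lines the lowest level was 0.215 CPM (YEJH-FP4), the median 0.325 and the highest 0.749 (YEJH-FP5). The line means of the origins did not overlap, but the repeats of YEJH-FP5 (0.857, 0.349 and 1.04 CPM) overlapped with those of YEJG-FP and YEJG-M2. How many other genes separate the origins in this way was not counted. The mean was 1.80 ± 1.61 CPM (SD, n = 3) in YEJG-derived and 0.369 ± 0.157 CPM (SD, n = 10) in YEJH-derived lines, a ratio of 4.89.

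Loxl1 was the member that passed the test between origins. Its log2 fold change, with site as a covariate, was 2.20 ± 0.45 (SE) with an adjusted p of 0.00174 by edgeR. This was 1 of the 4 members tested, beside 40.8% of all 15815 genes tested, of which 19.2% were higher and 21.6% lower in YEJG-derived lines. Without YEJG-M1 the log2 fold change of Loxl1 was 1.21 (adjusted p = 0.0196, edgeR), with 34 and 40 reads of Loxl1 behind the YEJG-derived lines that then remained. Within prefix A libraries the means were 2.04 and 0.421 CPM, and within prefix B libraries 1.499 and 0.347 CPM. The parental lines read 0.423 CPM (YEJG) and 0.182 CPM (YEJH). Between lung and fat-pad lines the levels of Loxl1 overlapped, with means of 0.884 ± 1.25 CPM (SD, n = 7) and 0.485 ± 0.253 CPM (SD, n = 6), and in YEJH-derived lines alone 0.324 and 0.414 CPM.

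Loxl3, a scavenger receptor domain member known from cartilage and palate development, was the best measured member, with 10 to 580 reads in every library. The YEJH fat-pad lines lay close together, at 7.89 (YEJH-FP1), 10.999 (YEJH-FP2), 9.85 (YEJH-FP3), 10.3 (YEJH-FP4) and 8.07 CPM (YEJH-FP5). The YEJH lung lines ran wider, at 9.46 (YEJH-M1), 8.45 (YEJH-M2), 2.65 (YEJH-M3), 5.94 (YEJH-M4) and 3.77 CPM (YEJH-M5). Thus 3 of the 5 YEJH lung lines lay below all the YEJH fat-pad lines, while YEJH-M1 and YEJH-M2 lay within their range. The parental line YEJH stood at 3.33 CPM, below all 5 of its fat-pad descendants and 4 of its 5 lung descendants.

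Lines of YEJG origin spread further for Loxl3 than those of YEJH origin. The parental line YEJG was the lowest of all lines at 0.926 CPM (repeats of 0.838, 0.975 and 0.965) and YEJG-FP the second lowest at 1.71 CPM (1.87, 1.86 and 1.42). YEJG-M2 had 7.55 CPM (7.78, 7.58 and 7.30), and YEJG-M1 was the highest of all at 38.0 CPM (39.6, 37.8 and 36.7), 3.46 times the next line. The direction between sites was therefore not the same in the lines of each origin. In YEJG lines the lung mean was 22.8 CPM against 1.71 CPM in the 1 fat-pad line, whereas in YEJH lines it was 6.05 ± 2.92 CPM (SD, n = 5) against 9.43 ± 1.38 CPM (SD, n = 5), a difference between origins that was not tested. Htra2, a mitochondrial protease gene that overlaps Loxl3 on the other strand, was at 88.5 CPM in YEJG-M1 and 82.2 CPM in YEJG-M2, the highest of the lines, and between 56.1 and 64.6 CPM in the other 13. Its part in the Loxl3 counts was not tested.

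Loxl3 differed among the 5 YEJH lung lines (edgeR, adjusted p = 1.46e-05), with a fitted log2 range of 1.83. All 3 members tested there were called, Lox, Loxl3 and Loxl4, beside 20.6% of the 13599 genes tested. It did not pass among the 5 YEJH fat-pad lines (adjusted p = 0.0944, edgeR, log2 range 0.50). Between origins the log2 fold change of Loxl3 was 1.07 ± 0.70 (SE, adjusted p = 0.246, edgeR). That value turned to -0.64 without YEJG-M1 (adjusted p = 0.43), and without YEJG-FP it was 1.90 and passed (adjusted p = 0.00739).

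Loxl4, the scavenger receptor domain member with the widest range here, had few or no reads in several lines and was abundant in 1. YEJH-M5 had 81.5 CPM, with repeats of 74.2, 80.1 and 90.0 and 3666 of the 4627 Loxl4 reads of the whole series. The next lines were YEJH-M2 at 7.85 CPM (7.14, 7.68 and 8.73), YEJG-M2 at 5.28 CPM (4.39, 5.23 and 6.20), YEJH-FP2 at 3.21 CPM (2.97, 2.74 and 3.92) and YEJH-M1 at 2.19 CPM (2.63, 1.95 and 1.995). The repeats of these 5 lines did not overlap with those of their next neighbours in the order. Below them YEJG-FP, YEJG-M1, YEJH-FP1, YEJH-FP4 and YEJH-M3 ran from 0.763 to 0.407 CPM with overlapping neighbours. YEJH-FP3 and YEJH-FP5 followed at 0.116 and 0.0851 CPM, and the parental line YEJG had 2 reads in all.

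In YEJH-M4 and in the parental line YEJH no Loxl4 read was found in any of 3 libraries. With a floor of 3 reads per line, Loxl4 was at least 1203-fold higher in YEJH-M5 than in YEJH-M4 and at least 1100-fold higher than in the parental line YEJH. Against the next line in the order, YEJH-M2, it was 10.4-fold higher. The highest and the lowest Loxl4 level of the whole series thus both lay among lung lines of the same origin, and among those 5 lines Loxl4 differed by edgeR (adjusted p = 2.27e-11). Without YEJH-M5 it still differed among the other 4 (adjusted p = 1.81e-06).

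Among the 5 YEJH fat-pad lines Loxl4 was the only called member of the 3 tested (edgeR, adjusted p = 3.61e-05), beside 1.19% of the 13429 genes tested. YEJH-FP2 was the high line at 3.21 CPM, and the other 4 lay between 0.0851 and 0.631 CPM. Without YEJH-FP2 the gene no longer reached the minimum count for testing, and without repeat 2 of every line the call was lost (adjusted p = 0.0922, edgeR). Between lung and fat-pad lines the levels of Loxl4 overlapped, from 0 to 81.5 CPM in the lung lines (median 2.19) and from 0.0851 to 3.21 CPM in the fat-pad lines (median 0.557).

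**Figure D3:**
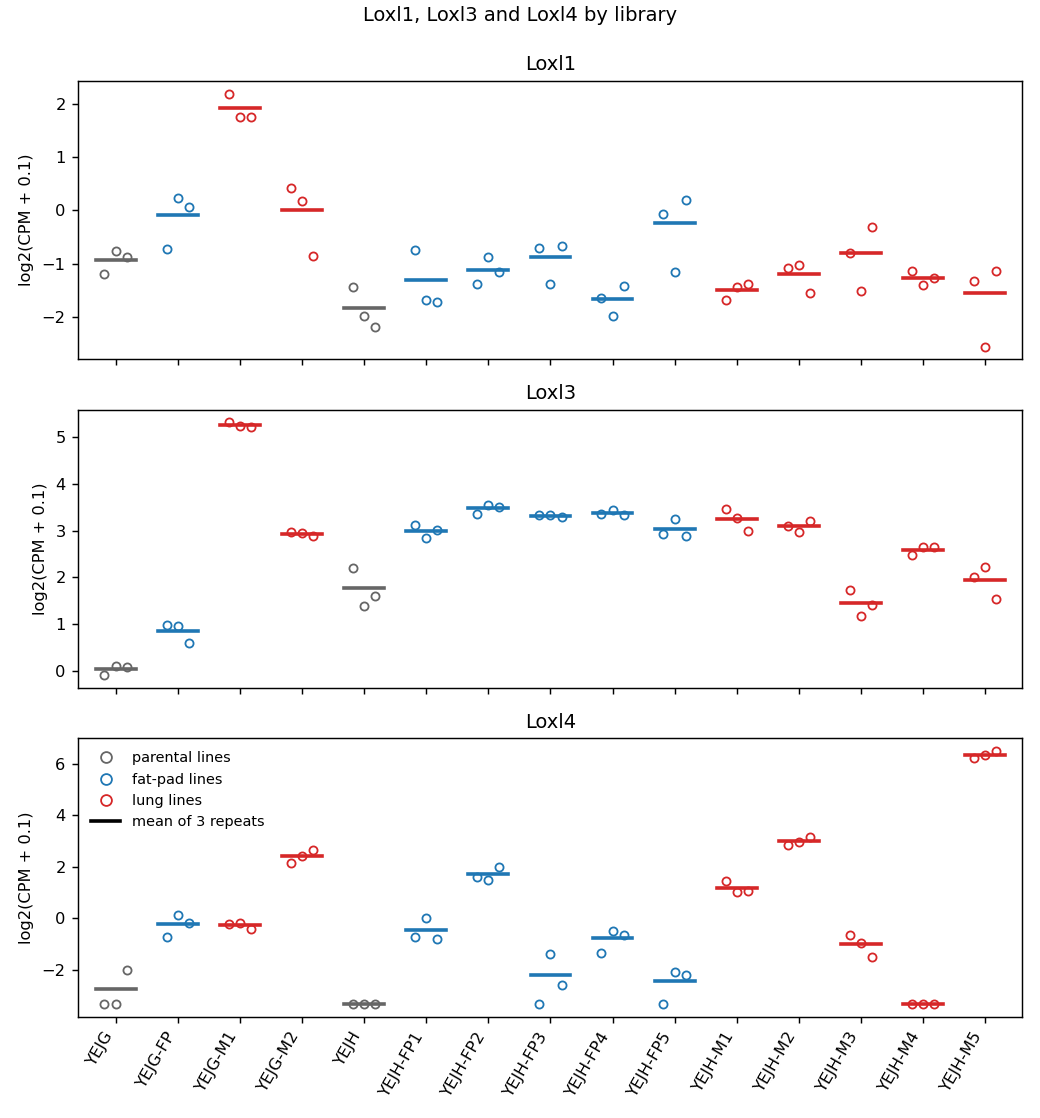
Loxl1, Loxl3 and Loxl4 in each of the 45 libraries as log2(CPM + 0.1); open circles are libraries, bars the same transform of the mean CPM of 3 technical repeats, and colours the site of each line. YEJG-M1 is the highest line for Loxl1 and Loxl3 and YEJH-M5 for Loxl4, and YEJH and YEJH-M4 lie at the bottom of the Loxl4 panel with no reads.

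Loxl2, the member most studied as a promoter of tumour invasion, was not measurable at this depth. It had 52 reads over the 45 libraries, at most 3 reads in 44 of them and none in 11. The highest count was 5 reads, in repeat 3 of YEJG-FP (0.394 CPM). It passed the minimum count for testing in none of the comparisons, and the repeats of all 14 neighbouring pairs in the order overlapped. A level of up to 3 reads per library, 0.173 to 0.315 CPM by library, could not be told apart from 0. Intervals and floors of this kind cover counting error only.

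The passage through a mouse was addressed by comparing the 13 derived lines with the 2 parental lines, with origin as a covariate. By edgeR 0 of the 4 members tested were called, beside 7.74% of the 16361 genes tested (3.51% higher and 4.23% lower in derived lines). Loxl1 and Loxl3 were under 0.05 before adjustment in that fit, as were 3863 of the 16361 genes. DESeq2 and limma called 1 member each, beside 2050 of 16348 and 2567 of 13824 genes tested. Loxl3 was higher in derived lines by a log2 fold change of 2.14 ± 0.96 (SE, adjusted p = 0.194), with 9.59 ± 9.04 CPM (SD, n = 13) in derived and 0.926 and 3.33 CPM in the parental lines. It was the member called when limma was run on single libraries (adjusted p = 0.0497). Loxl1 had a log2 fold change of 1.62 ± 0.67 (SE, adjusted p = 0.157), and Lox of -0.38 ± 0.52 (SE, adjusted p = 0.734).

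Loxl4 was at 2 reads over the 6 parental libraries and at 4625 reads over the 39 derived ones. The pooled ratio was 326, with a 95% Clopper-Pearson interval of 90.1 to 2691, and without YEJH-M5 it was 73.5 (20.3 to 608). These intervals treat reads as independent and leave out the spread between lines, which the edgeR fit includes (adjusted p = 0.325). Loxl4 was the member called by DESeq2 (adjusted p = 0.0272).

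Lox and Loxl4 did not pass between origins either. Lox had a log2 fold change of -0.39 ± 0.49 (SE, adjusted p = 0.56, edgeR), with a range of 0.138 to 5.80 CPM in YEJG-derived lines that spanned the range of 0.399 to 4.04 CPM in YEJH-derived lines. Without YEJG-FP the Lox value was -1.79 and passed (adjusted p = 0.0152), and without YEJG-M1 it turned to 0.12 (adjusted p = 0.872). Loxl4 had a log2 fold change of -1.92 ± 1.76 (SE, adjusted p = 0.416, edgeR), which was 0.043 without YEJH-M5.

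**Figure D4:**
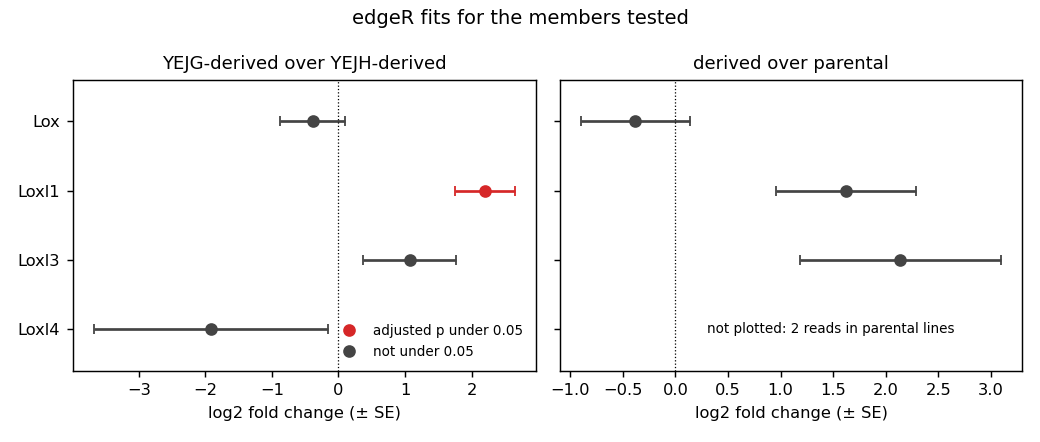
Fitted log2 fold changes with their standard errors from edgeR for the members tested, YEJG-derived over YEJH-derived lines with site as a covariate (left) and derived over parental lines with origin as a covariate (right); red marks an adjusted p under 0.05. Loxl1 between origins, at 2.20, is the only red point, and Loxl4 is left out on the right because the parental lines held 2 reads.

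The genes around the family were taken from lists of its substrates, its processing, its copper supply and pathways known to drive it. Of the 28 genes for matrix substrates and fibre assembly 19 were tested and 12 called by edgeR, 9 higher and 3 lower (63.2%, beside 40.8% of all genes), and their median log2 fold change was 0.52 beside 0.0032 for all genes. The fibrillar collagen gene Col3a1 rose by 5.42 ± 0.60 (log2, SE, adjusted p = 3.25e-05), from at most 0.259 CPM in YEJH-derived lines to between 0.537 and 5.91 CPM. Fbln1, a fibulin of basement membranes and elastic fibres, rose by 5.17 ± 0.96 (adjusted p = 0.001). Col5a1, which regulates collagen fibril width, rose by 3.05 ± 0.65 (adjusted p = 0.00245), from 10.2 ± 5.19 CPM (SD, n = 10) to 98.4 ± 78.1 CPM (SD, n = 3). Fn1, which encodes the fibronectin that lysyl oxidases and BMP1 bind, was at 809 ± 172 CPM (SD, n = 3) and 680 ± 185 CPM (SD, n = 10) and did not pass (adjusted p = 0.41).

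The main elastic substrate was hardly detected in these cultures. Eln, which encodes tropoelastin, was between 0 and 0.0574 CPM in every line, and Fbln5, which tethers elastin and Loxl1, between 0 and 0.0672 CPM. Postn, which encodes periostin, a scaffold for BMP1, reached at most 0.139 CPM, and none of these 3 genes was tested. Efemp2, which encodes fibulin 4 and carries Lox to elastic fibres, was well expressed, at 15.7 to 103 CPM. It rose by 0.89 ± 0.27 in YEJG-derived lines (log2, SE, adjusted p = 0.0178, edgeR), a call lost without YEJG-M1 (adjusted p = 0.11) or without YEJG-M2 (adjusted p = 0.079).

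Of the genes for propeptide processing, 5 of 8 were tested and 2 were called between origins (40%, beside 40.8% of all genes), in opposite directions. Bmp1, the protease that activates Lox, fell by 0.79 on the log2 scale in YEJG-derived lines (SE 0.069, adjusted p = 6.41e-06, edgeR), from 170 ± 14.2 CPM (SD, n = 10) to 97.6 ± 5.69 CPM (SD, n = 3). Pcolce, which encodes an enhancer of BMP1 on procollagen, rose by 3.37 ± 0.32 (adjusted p = 1.28e-05), from between 2.76 and 4.78 CPM to between 11.8 and 75.6 CPM. Bmp1 was also lower in derived than in parental lines (log2 fold change -0.43, SE 0.074, adjusted p = 0.00589), a call lost without the parental line YEJG (adjusted p = 0.134).

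Of the other collagen-modifying and crosslinking enzymes, 17 of 19 were tested and 9 called between origins, 8 of them higher in YEJG-derived lines (52.9%). Plod2, the lysyl hydroxylase of collagen telopeptides, whose product the oxidases act on, rose by 1.68 ± 0.27 (log2, SE, adjusted p = 0.000344, edgeR), from 21.7 ± 7.97 CPM (SD, n = 10) to 74.1 ± 18.2 CPM (SD, n = 3). P3h3, a collagen hydroxylation cofactor, rose by 1.60 ± 0.53 (adjusted p = 0.027), a value of -0.0042 without YEJG-M1. Plod1, the lysyl hydroxylase of the collagen helix, rose by 1.12 ± 0.29 (adjusted p = 0.008), and without YEJG-M1 the value was 0.71 (adjusted p = 0.0677). P3h3 was also uncalled without YEJH-M4 (adjusted p = 0.0544).

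Of the 12 copper supply genes tested, of 13, 4 were called between origins, all higher in YEJG-derived lines (33.3%, a smaller share than the 40.8% of all genes). They included the metallothioneins Mt2, at a log2 fold change of 2.58 ± 0.57 (SE, adjusted p = 0.00297, edgeR), and Mt1, at 1.76 ± 0.28 (adjusted p = 0.000357), and the extracellular superoxide dismutase gene Sod3, at 2.21 ± 0.31 (adjusted p = 0.000137). Atp7a, the copper pump that loads the enzymes in the secretory pathway, lay between 17.4 and 23.8 CPM in all lines and did not pass (adjusted p = 0.0623). Without YEJG-FP the copper supply count was 7, where 7208 of all 16199 genes tested were called.

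Hypoxia response genes moved in both directions between origins, with 10 of 16 called, 6 higher and 4 lower (62.5%). Egln3, Bnip3 and Pdk1, targets of hypoxia-inducible factors in oxygen sensing, mitophagy and glycolysis, rose by 3.58 ± 0.46, 1.68 ± 0.31 and 1.52 ± 0.31 (log2, SE, adjusted p = 8.02e-05, 0.000992 and 0.0016, edgeR). Car9, a carbonic anhydrase gene widely used as a hypoxia marker, was lower in YEJG-derived lines by a log2 fold change of -1.30 (SE 0.36, adjusted p = 0.0114), a call lost without YEJG-FP (adjusted p = 0.069). Hif1a itself was between 144 and 183 CPM in all lines and did not pass (adjusted p = 0.444).

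Of the TGF-beta and YAP response genes 10 of 17 were called between origins, 3 higher and 7 lower (58.8%). The 3 named by their size were those that rose, the smooth muscle gene Tagln (4.29 ± 0.44), the co-receptor gene Tgfbr3 (2.56 ± 0.47) and the ligand gene Tgfb2 (2.52 ± 0.30), each a log2 fold change with its SE and with an adjusted p of at most 0.000891 by edgeR. Of the EMT factors and markers 7 of 11 were called, 5 higher and 2 lower (63.6%). Vim, an intermediate filament gene of mesenchymal cells, stood at 781 to 4165 CPM in YEJG-derived and 234 to 743 CPM in YEJH-derived lines (log2 fold change 2.54 ± 0.40, SE, adjusted p = 0.000338, edgeR). The repressors of epithelial genes Zeb1 and Zeb2 rose by 2.51 ± 0.27 and 2.04 ± 0.25 (adjusted p = 2.53e-05 and 6.59e-05). Snai1, which encodes a repressor reported to be stabilised by Loxl2 and Loxl3, was at 3.65 to 11.7 CPM and did not pass (adjusted p = 0.894).

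Fibroblast markers, like Loxl1, were higher in YEJG-derived than in YEJH-derived lines. The sum of these markers was 10.2 to 85.4 CPM in YEJG-derived lines, 2.33 to 5.14 CPM in YEJH-derived lines and 1.95 to 2.93 CPM in the parental lines. Pdgfrb was highest in YEJG-M2 (73.1 CPM), and Pdgfra in YEJG-M1 (42.2 CPM), the line with the highest Loxl1. Of the 8 markers Pdgfra and Pdgfrb were at a mean of 1 CPM or more, Thy1 and Lum were at 0 reads in all 45 libraries, and Dcn and Fap had 53 and 8 reads in all. Col1a1 and Col3a1 are on both this list and the matrix list. Luminal markers were lower in YEJG-derived lines, at 2796 to 4176 CPM against 5525 to 7407 CPM. The part of these markers in the values above was not tested.

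**Figure D5:**
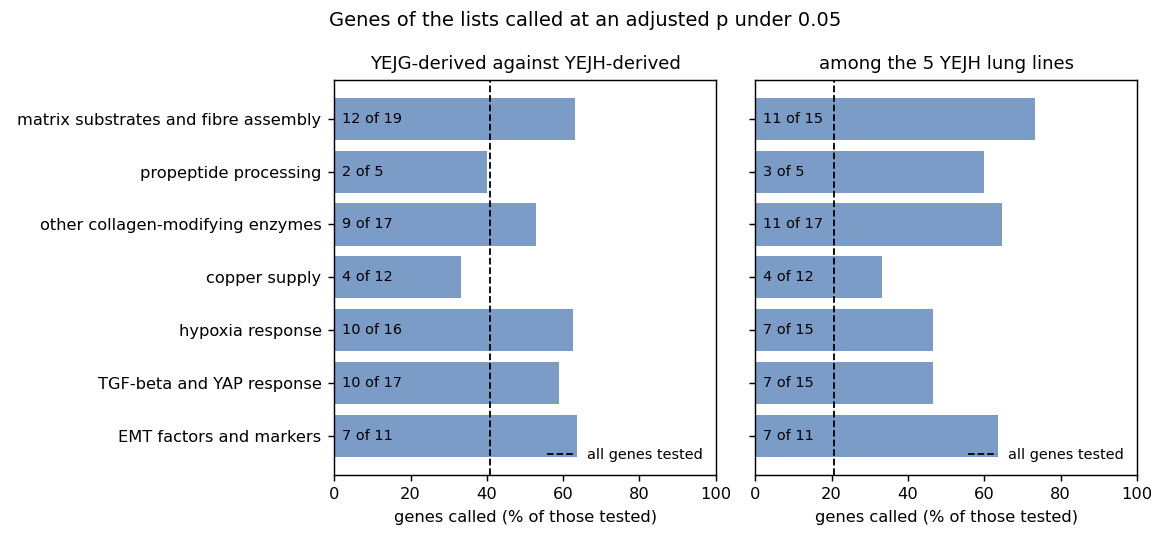
Share of the tested genes of each list that edgeR called at an adjusted p under 0.05, in percent, between YEJG-derived and YEJH-derived lines (left) and among the 5 YEJH lung lines (right); numbers in the bars are genes called of genes tested, and the dashed line is the share of all genes tested. The dashed lines stand at 40.8% and 20.6%; copper supply, at 33.3%, is left of the line between origins.

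Among the 5 YEJH lung lines, where Lox, Loxl3 and Loxl4 differed, the lists also held called genes. The count was 11 of 15 for the matrix list (73.3%, beside 20.6% of all genes), 3 of 5 for propeptide processing and 11 of 17 for the other collagen-modifying enzymes. It was 4 of 12 for copper supply, 7 of 15 for hypoxia response, 7 of 15 for the TGF-beta and YAP response and 7 of 11 for the EMT list. Without YEJH-M1 the count fell to 7 for the collagen-modifying enzymes, 1 for copper supply, 4 for hypoxia response and 3 for the TGF-beta and YAP list. Without YEJH-M5 it fell to 1 for propeptide processing and to 4 for each of hypoxia response and the TGF-beta and YAP list. The number of all genes called fell as well, from 2808 of 13599 to 1764 of 13741 without YEJH-M1 and 1714 of 13705 without YEJH-M5. Among the 5 YEJH fat-pad lines 3 of 14 matrix genes were called and 2 each of the collagen-modifying, TGF-beta and EMT lists (of 17, 15 and 11), where 1.19% of all genes were.

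Between derived and parental lines the called shares of the lists lay on both sides of the 7.74% of all genes. The matrix list held 6 of 20 (3 higher, 3 lower, 30%) and propeptide processing 1 of 5 (20%). The other collagen-modifying enzymes held 1 of 17 (5.88%), hypoxia response 1 of 16 (6.25%) and the EMT list 1 of 11 (9.09%). Copper supply and the TGF-beta and YAP list held 0 by edgeR, with 2 of 12 and 6 of 17 under 0.05 before adjustment. They held 1 each by DESeq2, which called 2050 of 16348 genes, and 4 and 5 by limma, which called 2567 of 13824. Tgm2, a transglutaminase that crosslinks matrix proteins by another chemistry, was higher in derived lines by 1.13 ± 0.26 (log2, SE, adjusted p = 0.0195, edgeR), from 34.4 and 61.1 CPM in the parental lines YEJG and YEJH to 60.7 to 164 CPM. Car9 was higher by 3.23 ± 0.51 (adjusted p = 0.00348), from 0.431 and 0.725 CPM to between 1.92 and 12.04 CPM, and Epcam, an epithelial adhesion gene, had a log2 fold change of -0.98 (SE 0.26, adjusted p = 0.0398).

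Col3a1 and Fbn2, a fibrillin gene, had 0 reads in both parental lines and were called in derived lines (adjusted p = 0.0351 and 0.0451, edgeR), at levels of at most 5.91 and 0.532 CPM. The calls of Tgm2, Col3a1 and Fbn2 were lost without the parental line YEJG (adjusted p = 0.271, 0.804 and 0.344), as was that of Epcam, whose log2 fold change was then -0.23. Over all alternatives run the call was lost in 13 of 18 for Fbn2, 13 of 28 for Epcam, 7 of 28 for Col3a1 and 3 of 28 for Tgm2. Leaving out either parental line, which leaves 1 parental line, moved the counts of several lists and of all genes in the same direction. Without YEJG-FP the hypoxia response count was 5, where 1780 of 16295 genes were called, beside 1267 of 16361 with all lines. The list counts thus rest on the 2 parental lines and on YEJG-FP, as does the number of all genes called.

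The members did not follow a shared pattern across lines. Over the 15 lines, which share origins and sites, Pearson's r of log2 CPM between pairs of the 4 measurable members ran from -0.51 (Lox and Loxl1) to 0.36 (Loxl1 and Loxl3). Lox with Loxl3 gave -0.39, Lox with Loxl4 -0.31, Loxl3 with Loxl4 0.19 and Loxl1 with Loxl4 -0.0025. By rank (Spearman's rho) the values ran from -0.36 (Lox and Loxl4) to 0.28 (Loxl3 and Loxl4). Lox with Loxl1 was then -0.19, Lox with Loxl3 -0.096 and Loxl1 with Loxl3 0.021. The genes with a mean of at least 10 CPM whose pattern was most like that of Loxl3 were Wwtr1 (r = 0.94), which encodes the YAP partner TAZ, Ndc80 (0.93), a kinetochore gene, and Bin1 (0.93), a membrane-bending gene. For Lox they were Alad (0.89), an enzyme gene of haem synthesis, Lrp12 (0.88), a lipoprotein receptor relative, and Chchd7 (0.86). For Loxl1 they were Pum3, Poglut2 and Zcchc4 (0.90, 0.89 and 0.89), all of which dropped to at most 0.77 without YEJG-M1. For Loxl4 the highest values were lower, at 0.69 (Wdr36), 0.68 (Rilpl2) and 0.67 (Slc6a6). They are the highest of 8892 genes compared for each member and are given as a description.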

How the data were processed

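PolyA RNA of 15 cultured PyMT+ lines was sequenced in 3 technical repeats per line. The authors' deposited table holds unnormalised gene counts, with 45 library columns and class totals for unassigned reads that took 31.6% to 43.3% of each library and were left out. Submitters' processing notes name FastQC, HISAT2, SAMtools 1.2 and HTSeq, and list the human build GRCh38 although the gene identifiers are mouse Ensembl. The annotation release and the strand setting of the counting are not given in the sources used here. Libraries were made with the TruSeq RNA Library Prep kit v2, which does not mark strand. Symbols, positions and exon lengths came from GENCODE vM39 (GRCm39), which matched 50764 of 54838 identifiers (92.6%).

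Levels are CPM over genes that passed the filter, scaled by TMM over all libraries. Groups were taken from the labels. Counts were summed per line, filtered with filterByExpr and tested with edgeR 4.0.16 (glmQLFit, glmQLFTest) in R 4.3.3, with Benjamini-Hochberg adjustment over all genes tested and a threshold of 0.05. Origin was tested over 13 derived lines with site as covariate, and derived against parental lines over 15 lines with origin as covariate. Lines of 1 site were tested on libraries with the name prefix as covariate. The p-values of those tests measure only the spread between technical repeats. The edgeR tests of origin, of derived against parental lines and among lines of 1 site were tried on simulated data. Changes were placed there in genes with an average log2 CPM over 1. The other fits and the alternatives were not tried in this way. Alternatives used DESeq2 1.42.0, limma 3.58.1, RLE scaling, no filter, single prefixes and omission of lines or repeats.

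The members and lists were chosen with earlier results of these data known. Named genes were the 5 members, 10 fixed partners (Eln, Fn1, Bmp1, Pcolce, Efemp2, Fbln5, Atp7a, Hif1a, Postn, Snai1) and, for each list, up to 3 genes called between origins and up to 2 called between derived and parental lines, by largest log2 fold change. For likeness, 3 genes per member were named by Pearson's r of log2 CPM (prior count 2) over line sums. Repeats of a line differed by more than sampling noise (chi-square per degree of freedom 2.76 to 114). They were kept apart for the levels, for the prefix comparison and for the tests among lines of the same site. Their counts were summed per line for the fits of origin, of derived against parental lines and of lung against fat-pad lines.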

Additional observations from a re-analysis of the deposited data

Results flagged for a closer look

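Lines were compared with others of their group by the gap to the nearest line as a share of the group's range, against Dixon's critical value, in 20 groups of 4 to 10 lines for the members that were measurable. A line stood apart in 10 of them. The critical value gives about 1 flag in 20 groups only for independent, normally distributed values. These were untransformed CPM, and some groups mixed origins, so the 10 cannot be set against chance. Several of these groups share lines, so the 10 are not separate findings.

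Loxl4 in YEJH-M5 (81.5 CPM, nearest 7.85 in YEJH-M2) gave a ratio of 0.904 among the lung lines, among the YEJH lung lines and among the YEJH-derived lines. Loxl4 in YEJH-FP2 (3.21 CPM) gave 0.783 among all fat-pad lines, where the nearest was YEJG-FP at 0.763 CPM, and 0.825 among the YEJH fat-pad lines, where it was YEJH-FP1 at 0.631 CPM.

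YEJG-M1 stood apart from the other lung lines in Loxl3 (38.0 CPM, nearest 9.46 in YEJH-M1, ratio 0.808) and in Loxl1 (3.67 CPM, nearest 0.903 in YEJG-M2, ratio 0.807). YEJG-FP stood apart from the other fat-pad lines at the low end of Loxl3 (1.71 CPM, nearest 7.89 in YEJH-FP1, ratio 0.665).

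Lox in YEJH-FP4 (4.04 CPM, nearest 3.21 in YEJH-FP1) gave 0.782 among the YEJH fat-pad lines, and Loxl1 in YEJH-FP5 (0.749 CPM, nearest 0.475 in YEJH-M3) gave 0.513 among the YEJH-derived lines. Causes were not tested.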

How the results depend on the processing

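Loxl1 between origins kept its direction and stayed called in 27 of 27 alternatives (log2 fold change 1.21 to 2.75, adjusted p at most 0.0196). The other values between origins rested on single lines. With lines or repeats left out Lox ran from -1.79 to 0.12, Loxl3 from -0.64 to 1.90 and Loxl4 from -2.59 to 0.043, and Loxl4 was 0.29 by limma on single libraries, 0.30 with a replicate block on the repeat number and 0.30 with the prefix as covariate. The alternatives for named genes and list counts were chosen after seeing the data. Of the named genes 19 of 28 kept their side of the threshold between origins in all alternatives and 2 of 29 between derived and parental lines.

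Between derived and parental lines the number of genes called, 1267, was 2050 by DESeq2, 2567 with libraries apart in limma, 2615 with the repeat block, 2580 with the prefix as covariate, 726 in prefix B libraries, 615 in YEJH lines only, 412 in YEJG lines only and 162 (without YEJG) to 2266 (without YEJH) with lines or repeats left out. Loxl3 was called with libraries apart (2.02, adjusted p = 0.0497) and with the prefix as covariate (2.01, adjusted p = 0.0468), and Loxl4 by DESeq2 (6.39, adjusted p = 0.0272). In YEJH lines only Fn1 turned to -0.069, Plod2 to -0.027, Sod3 to -0.047 and Tgfb2 to -0.58, in YEJG lines only Atp7a to -0.028, and between origins Snai1 to 0.059 in prefix B libraries. With lines or repeats left out these ran, between derived and parental lines, from -0.065 to 0.86 for Fn1, -0.023 to 1.38 for Plod2, -0.029 to 2.53 for Sod3, -0.58 to 3.33 for Tgfb2 and -0.013 to 0.15 for Atp7a, and between origins from -0.30 to 0.30 for Snai1, -0.064 to 0.031 for Hif1a and -0.0042 to 2.21 for P3h3.

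Between lung and fat-pad lines 1 gene was called in prefix A libraries, 3 with origin as covariate, 7 in YEJH lines only and 0 to 1 with lines or repeats left out. Loxl1 there was -0.35 in YEJH lines only and -0.29 with the number in the line names as a replicate block, where Loxl3 was -0.77. Among YEJH fat-pad lines 596 genes were called without a filter, 365 with the repeat block, 248 by DESeq2 and 1 to 236 with lines or repeats left out, against 160. Loxl3 was called there without a filter (0.51, adjusted p = 0.0135) and with the block (0.50, adjusted p = 0.0471), and Loxl4 ran from 4.70 to 6.38. Among YEJH lung lines 782 to 3969 genes were called with lines or repeats left out, against 2808, and Lox ran from 0.87 to 3.17. Across genes, same-numbered repeats correlated at a mean of 0.0043 and same-numbered YEJH lines at -0.038 (-0.13 to 0.027, 5 pairs). Such correlations cannot show whether same-numbered YEJH lines came from the same mouse. No call of a member other than those named here changed with the block. The cause of these changes was not tested.

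Depth limits Loxl2 throughout, Loxl1 in most YEJH-derived lines (9 to 34 reads per line) and Loxl4 in lines near 0. The lung and fat-pad values hold 1 YEJG fat-pad line, and the parental arm holds 2 lines.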
